A study of Mus musculus with 9 samples.

Results

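The 10 genes described here are immediate early and stress response genes, Fos, Fosb, Jun, Junb, Jund, Egr1, Atf3, Ier2, Ier3 and Dusp1. They were found by symbol in the deposited table, where all 10 have a row among 22526 genes. Messenger RNA was measured in 9 libraries of oocytes from ICR mice, an outbred strain, all at metaphase II, the stage at which the ovulated egg waits for fertilisation. The groups were young (3 libraries), aged (3 libraries) and nicotinamide mononucleotide (NMN) supplementation (3 libraries), NMN being a precursor of the coenzyme NAD, and the study asks whether it restores oocytes that have declined as mothers grow old. The labels give no age in weeks or months, no dose, no route and no age for the NMN mice, and neither the number of oocytes nor of mice behind a library, so the spread between libraries may be technical.

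Immediate early genes are switched on within minutes of a growth factor, hormone or stress signal, without new protein synthesis, largely through MAP kinases that act on transcription factors already bound at their promoters. Their transcripts are short-lived in most cells. The Fos and Jun proteins pair to form the transcription factor AP-1, Egr1 is a zinc finger factor, Atf3 is a stress-induced factor of the ATF/CREB family, Ier2 and Ier3 are small response proteins, and Dusp1 is a phosphatase that switches MAP kinases off. A fully grown oocyte has stopped transcribing, so its mRNA is a maternal store, whereas the cumulus and granulosa cells around it do transcribe and turn on immediate early genes in response to the ovulatory signal.

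The table gives FPKM, in which fragment counts are corrected for the length of the transcript and the depth of the library, so that values can be compared between genes. Depth, estimated from the low values, was 16.28 to 19.25 M reads per library, and 3 reads of a 2 kb transcript would give 0.0779 to 0.0921 FPKM, a limit that covers counting error only. A list of 12 oocyte markers (including Zp1, Mos and Gdf9) was found in full and summed to 6934 to 10464 FPKM. Aged replicate 2 stood apart in the markers of cumulus and granulosa cells, which summed to 40.6 FPKM in it and to 6.80 to 11.6 FPKM in the other 8 libraries, so the group comparisons of the members are given with and without it.

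Dusp1, Egr1 and Fosb were above 0 in all 9 libraries and Fos in 8. Dusp1 was the most abundant member in every library but aged replicate 2, where Ier3 was at 34.9 and Dusp1 at 34.0 FPKM. Dusp1 ranged from 34.0 to 114 FPKM, which placed it above 93.9 to 98.2% of all genes in the table. Egr1 followed at 5.68 to 16.1 FPKM, below Dusp1 in every library and with no overlap of their ranges. Fosb, at 0.82 to 1.80 FPKM, and Fos, at 0 to 1.77 FPKM, overlapped and were not separated by the spread between libraries. Ier2, Ier3, Jun, Junb, Jund and Atf3 were each listed at 0 in at least 5 of the 9 libraries.

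To show the regulatory sequence of the most abundant member beside that of the 3 members that were high together in aged replicate 2 and have an entry, the stretches before their transcription starts are printed from RefSeq on build GRCm38.p6. Capitals mark every match to the motifs searched, and each stretch ends before the most upstream start annotated in RefSeq or GENCODE. Dusp1 (chr17:26508520-26508722, minus strand) is followed by Ier3 (chr17:35821463-35821683, plus strand), Junb (chr8:84978749-84978998, minus strand) and Jun (chr4:95052223-95052472, minus strand).
Dusp1: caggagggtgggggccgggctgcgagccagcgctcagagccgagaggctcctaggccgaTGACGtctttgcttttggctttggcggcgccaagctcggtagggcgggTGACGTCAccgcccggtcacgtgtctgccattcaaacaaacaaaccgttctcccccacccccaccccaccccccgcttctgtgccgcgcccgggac
Ier3: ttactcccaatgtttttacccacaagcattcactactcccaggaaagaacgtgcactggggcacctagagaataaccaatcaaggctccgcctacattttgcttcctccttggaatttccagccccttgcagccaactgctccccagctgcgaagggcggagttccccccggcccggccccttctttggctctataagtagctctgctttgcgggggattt
Junb: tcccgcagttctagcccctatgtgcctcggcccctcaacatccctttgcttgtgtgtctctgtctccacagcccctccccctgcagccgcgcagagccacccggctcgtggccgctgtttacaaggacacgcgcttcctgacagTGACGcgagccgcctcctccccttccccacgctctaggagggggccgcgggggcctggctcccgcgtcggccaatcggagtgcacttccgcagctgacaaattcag
Jun: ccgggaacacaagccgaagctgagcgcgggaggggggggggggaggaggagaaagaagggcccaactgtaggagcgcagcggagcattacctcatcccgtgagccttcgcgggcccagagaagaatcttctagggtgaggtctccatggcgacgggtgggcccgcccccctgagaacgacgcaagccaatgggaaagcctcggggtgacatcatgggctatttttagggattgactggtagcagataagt

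The motifs were searched on both strands in the 250 bases before the RefSeq start. An entry existed for 8 members, and Egr1 and Ier2 had none. The cyclic AMP response core TGACG was in 5 of the 8 (Fos, Fosb, Junb, Atf3 and Dusp1), against 17.8% of 32841 promoters of the same length. Its palindromic full form TGACGTCA, which contains the core on both strands, was in Dusp1 alone of the 8, from 143 to 136 bases before the start, against 1.55% of promoters. TATAAA was in Fos (12.4% of promoters) and the EGR site GCGNGGGCG in Fosb (4.7%). The AP-1 site TGANTCA and the serum response CArG box were in none of the 8 windows, and 6.75% and 1.47% of promoters held them. These matches describe the letters of the windows and say nothing of binding.

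**Figure D1:**
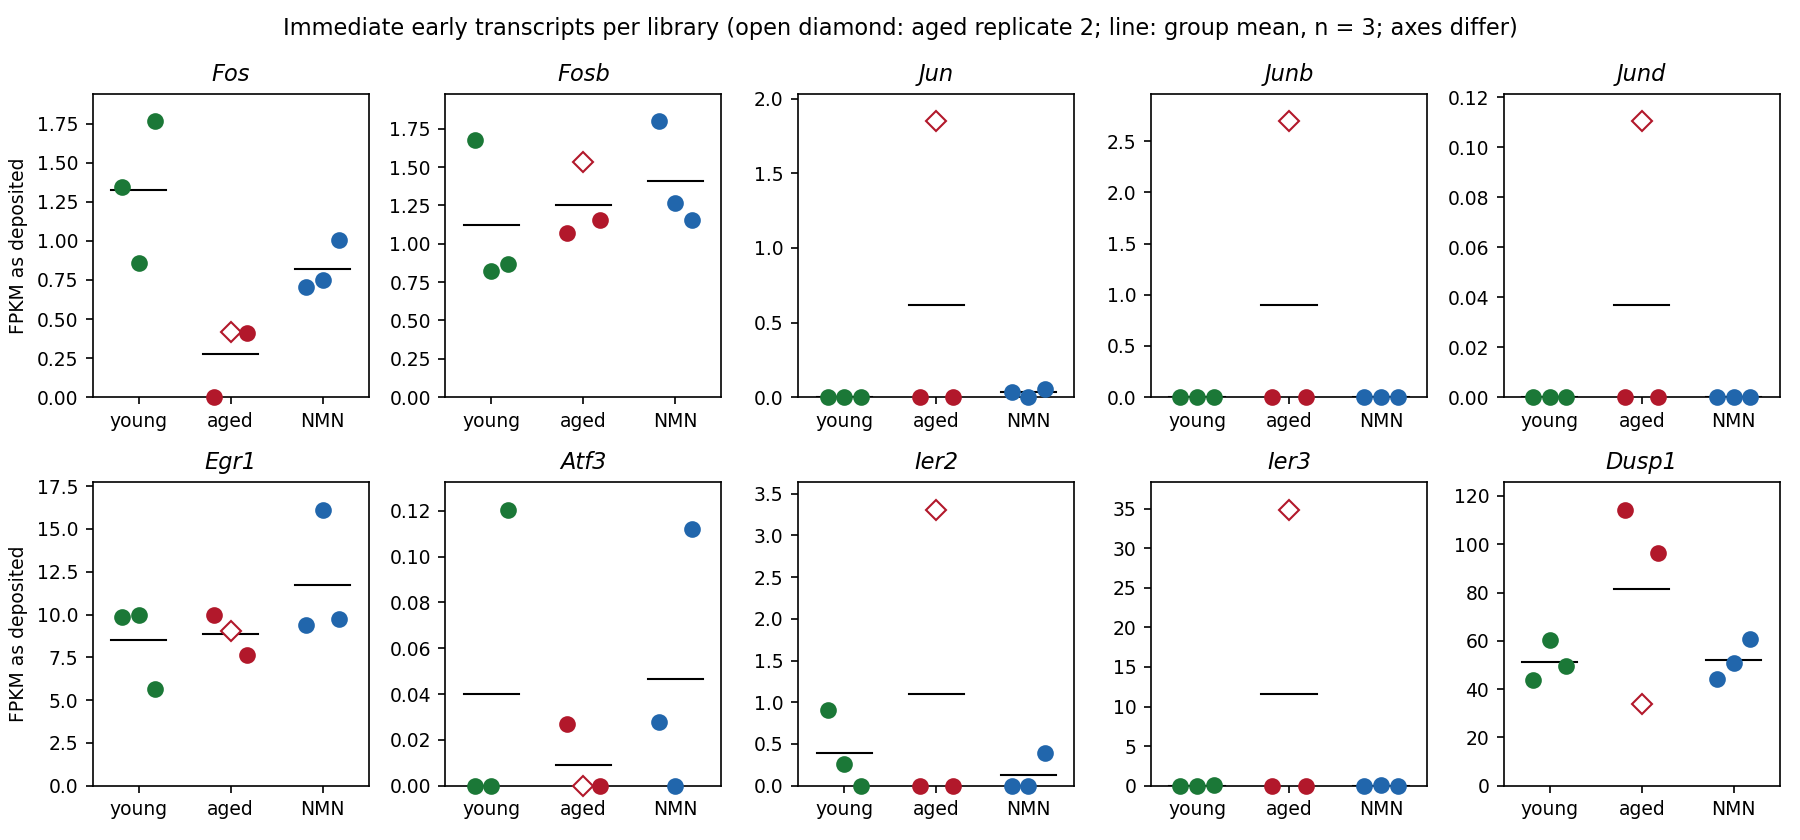
FPKM as deposited (vertical axis, a separate scale for each gene) of the 10 members in the 9 libraries, grouped as young, aged and NMN on the horizontal axis. Points are libraries, the open diamond is aged replicate 2, and lines are group means (n = 3). Dusp1 reaches 114 and 96.4 FPKM in aged replicates 1 and 3 and 34.0 in aged replicate 2, while Jun, Junb, Jund, Ier2 and Ier3 have their highest value in aged replicate 2.

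No member was called as changed between the groups when all 9 libraries were tested. Of the 10, Dusp1, Egr1 and Fosb passed the filter of at least 1 FPKM in at least 3 libraries. In limma on log2(FPKM + 1) 0 of these 3 were called in any of the 3 comparisons, and 0 had an unadjusted p under 0.05. In aged against young 2.18% of all 9174 tested genes were called (18.3% at an unadjusted p under 0.05). The shares were 0.218% (11.3%) for NMN relative to aged and 0.0763% (8.12%) for NMN relative to young oocytes. With no low-value filter all 10 could be tested, and again 0 were called in each comparison, where 0.138%, 0.04% and 0% of 22526 genes were in the same order (11.1%, 7.4% and 5.59% unadjusted). In that fit 1 member, Fos, had an unadjusted p under 0.05 in both comparisons with the aged group, and 0 members did between the NMN and young groups. Changes on this scale understate those of genes with low values.

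Dusp1 (ENSMUSG00000024190), which dephosphorylates ERK, JNK and p38 MAP kinases, was at 43.8, 60.3 and 49.8 FPKM in young replicates 1 to 3. It was at 114, 34.0 and 96.4 FPKM in aged replicates 1 to 3 and at 44.4, 50.7 and 60.8 FPKM in the NMN libraries. Aged replicates 1 and 3 thus lay above all 6 young and NMN libraries and aged replicate 2 lay below all of them, a pattern found in 95 of the 9174 tested genes (1.04%). The means were 51.3 ± 8.37 (young), 81.6 ± 42.2 (aged) and 51.9 ± 8.28 FPKM (NMN; SD, n = 3), and the young and NMN libraries covered nearly the same range. The log2 change was 0.44 ± 0.43 (SE) in aged against young (limma adjusted p = 0.626), -0.47 ± 0.43 in NMN against aged (adjusted p = 0.713) and -0.04 ± 0.43 in NMN against young (adjusted p = 0.985).

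The Dusp1 result depended on which aged libraries were used. Without aged replicate 2, Dusp1 rose by 1.04 ± 0.21 on the log2 scale in aged against young oocytes (95% interval 0.57 to 1.51, limma adjusted p = 0.0378), with both remaining aged libraries above all 3 young ones, as in 18.5% of 8963 tested genes. It was then the 1 member called of 3 tested, where 2.34% of the genes were called and 1.42% were called as higher. The call did not hold with no low-value filter, where the adjusted p was 0.111 and 0.296% of genes were called. Between the NMN group and the same 2 aged libraries the log2 change was -1.08 ± 0.21 (95% interval -1.55 to -0.61) and missed the threshold (adjusted p = 0.0898), with the NMN libraries below both, as in 14.3% of genes. Called genes in that comparison were 0.29% (0.159% with no filter). These comparisons share the aged libraries and are not independent of each other. NMN against young stayed near 0, at -0.04 ± 0.19 (95% interval -0.46 to 0.38), where 0.156% of genes were called (0.00455% with no filter). Without aged replicate 1 instead, the change in aged against young was 0.06 (adjusted p = 0.957), so the size of the change rests on which aged libraries enter. Ergic1, a gene on the opposite strand that overlaps Dusp1, was at 0.158 to 0.796 FPKM, far below Dusp1. Whether the reads were counted by strand is not given in the sources used here.

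Egr1 (ENSMUSG00000038418), a zinc finger transcription factor that follows ERK signalling, was at 9.83, 9.98 and 5.68 FPKM in the young libraries. It was at 9.96, 9.01 and 7.64 FPKM in the aged and at 9.36, 16.1 and 9.76 FPKM in the NMN libraries. All 3 groups overlapped, 7 of the 9 values lay between 7.64 and 9.98 FPKM, and the lowest (young replicate 3) and highest (NMN replicate 2) came from different groups. The log2 change was 0.03 ± 0.28 in aged against young (SE, 95% interval -0.59 to 0.65, limma adjusted p = 0.967). It was 0.34 ± 0.28 in NMN against aged (95% interval -0.27 to 0.96, adjusted p = 0.679) and 0.37 ± 0.28 in NMN against young (95% interval -0.25 to 0.99, adjusted p = 0.773). Intervals of this width hold changes of nearly 2-fold, so the data do not show that Egr1 was alike in the groups. In aged replicate 2 Egr1 was 1.02 times its mean in aged replicates 1 and 3.

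Fosb, a Fos-family partner of the Jun proteins, was at 1.68, 0.820 and 0.865 FPKM in the young libraries. It was at 1.07, 1.54 and 1.15 FPKM in the aged and at 1.80, 1.27 and 1.15 FPKM in the NMN libraries. The groups overlapped throughout. The log2 changes were 0.07 ± 0.20 in aged against young, 0.10 ± 0.20 in NMN against aged and 0.17 ± 0.20 in NMN against young (SE, limma adjusted p = 0.884, 0.902 and 0.835). The gene has 7 annotated transcripts, and the table does not separate its isoforms.

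Fos, the founding member of the family and the partner of Jun in AP-1, was at 1.35, 0.856 and 1.77 FPKM in the young libraries. It was listed at 0 in aged replicate 1 and was at 0.418 and 0.408 FPKM in aged replicates 2 and 3, and it was at 0.708, 0.751 and 1.003 FPKM in the NMN libraries. Every aged library lay below every young and every NMN library, and the NMN and young groups overlapped. Fos did not pass the low-value filter. In the fit with no filter the log2 change was -0.90 ± 0.21 (SE) in aged against young, with an unadjusted p of 0.00188 but a limma adjusted p = 0.155. In NMN against aged it was 0.53 ± 0.21 (adjusted p = 0.640) and in NMN against young -0.37 ± 0.21 (adjusted p = 0.832). Groups that do not overlap, lower in the first, were found for 6.94% of 22526 genes in aged against young, and higher in the first for 5.5% in NMN against aged, so 1 member of 10 in each is near the background. Between NMN and young 0 members were apart, against 11.2% of genes. With values not scaled between libraries Fos passed the filter, and its adjusted p in aged against young was 0.0866.

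Few reads stand behind Fos. If all came from its longest transcript of 2108 nt, the values would be 47, 31 and 72 reads in the young, 0, 14 and 14 in the aged and 25, 30 and 35 in the NMN libraries. For the 0 in aged replicate 1, 3 reads would give 0.0822 FPKM, below each of the 8 other values. Aged replicates 2 and 3 had nearly the same Fos value. Without aged replicate 2 the Fos change in aged against young was -0.96 ± 0.23 (limma adjusted p = 0.151, no filter).

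**Figure D2:**
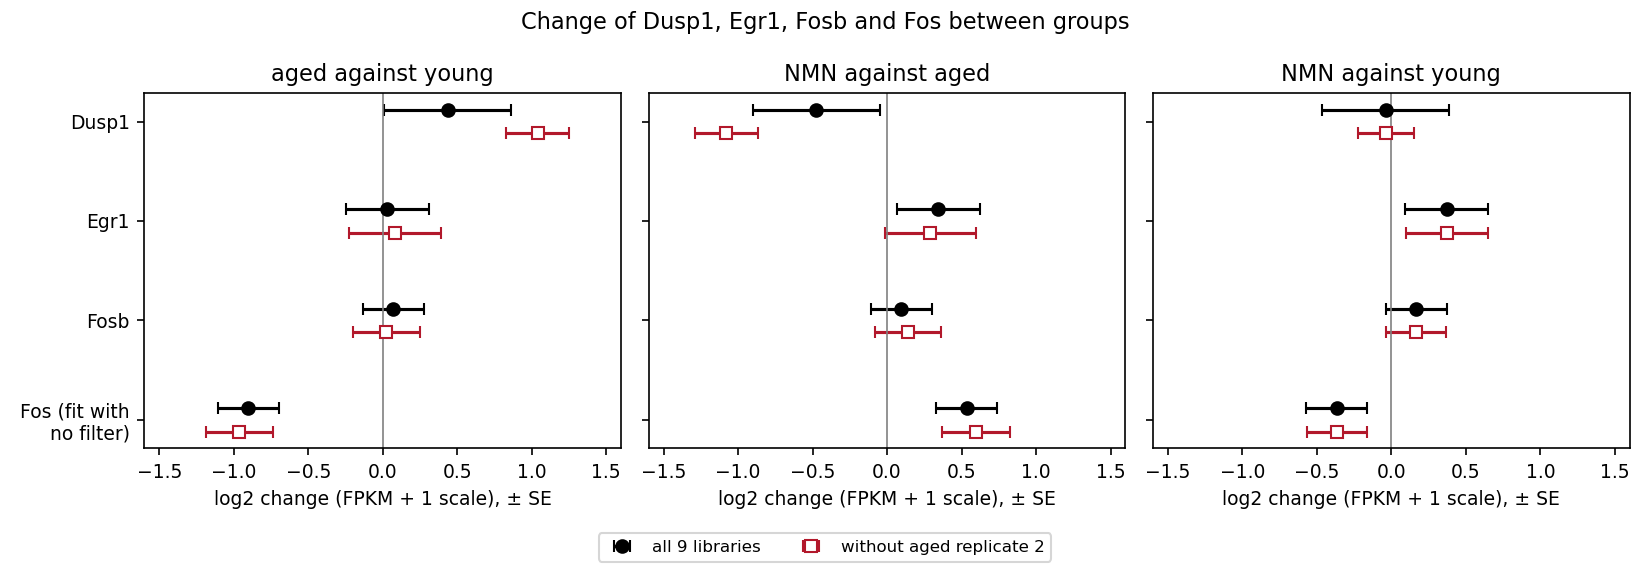
Log2 change on the FPKM + 1 scale (horizontal axis, with SE) of Dusp1, Egr1, Fosb and Fos in each of the 3 comparisons, from limma with all 9 libraries (filled circles) and without aged replicate 2 (open squares). Dusp1 moves from 0.44 to 1.04 in aged against young when that library is left out, and the other 3 genes move by less than their SE.

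Ier3, Ier2, Junb and Jun were high in aged replicate 2. Ier3 (ENSMUSG00000003541), a small stress-inducible protein that modulates survival and ERK signalling, was at 34.9 FPKM in aged replicate 2. It was listed at 0 in aged replicates 1 and 3 and at no more than 0.0473 FPKM, 1 read, in the 6 young and NMN libraries. The 34.9 FPKM correspond to about 642 reads of its 1131 nt transcript and lie close to the 34.0 FPKM of Dusp1 in the same library. Against the floor of 3 reads in aged replicates 1 and 3, Ier3 was at least 219-fold higher in aged replicate 2. With 1 library this is a description of that library, with no test.

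Junb and Jun, Jun-family subunits of AP-1, were high in the same library. In aged replicate 2 Junb reached 2.70 FPKM, whereas it was listed at 0 in the 8 remaining libraries. If all reads came from its longest transcript of 1809 nt, its value was 27.1-fold above the floor of 3 reads in aged replicates 1 and 3. A shorter form of 492 nt is also annotated, for which the floor would be higher and the fold lower. Jun was at 1.85 FPKM in aged replicate 2, about 96 reads of its only transcript of 3189 nt. That was at least 32.7-fold above the Jun floor of 3 reads in aged replicates 1 and 3. In the other libraries Jun was listed at 0 except for NMN replicates 1 and 3, where 2 and 3 reads gave 0.0373 and 0.0569 FPKM. Prdx2, an antioxidant gene that overlaps Junb on the opposite strand, was at 236 FPKM in aged replicate 2 and at 63.6 to 98.6 FPKM in the other 8 libraries, where Junb had no value above 0. Whether reads of Prdx2 entered the Junb value was not tested.

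Ier2, a nuclear immediate early protein, was at 3.31 FPKM in aged replicate 2, at least 28.1-fold higher than the floor of aged replicates 1 and 3, where it was listed at 0. Unlike Junb it was also seen elsewhere. Ier2 was at 0.904 and 0.264 FPKM in young replicates 1 and 2 (23 and 7 reads) and at 0.397 FPKM in NMN replicate 3 (10 reads), and listed at 0 in young replicate 3 and NMN replicates 1 and 2. Jund, the Jun-family member that most cells express steadily, was at 0.110 FPKM in aged replicate 2, which is 3 reads and thus at the floor, and listed at 0 elsewhere. Atf3, the stress factor of the ATF/CREB family, was listed at 0 in aged replicate 2 and at no more than 0.121 FPKM (young replicate 3) in any library. Fos, Fosb, Egr1 and Dusp1 were not highest in aged replicate 2 either.

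In all, 5 of the 10 members had their highest value in aged replicate 2, and Dusp1 had its lowest there. Of all genes in the table, 24.8% were highest in that library, and 21.4% of tested genes were lowest. Jun, Junb, Ier2 and Ier3 were above 1 FPKM and over 2 times every other library, which held for 3.06% of the genes. In the fit with no filter, these 4 had log2 changes of 0.23 to 1.64 in aged against young with adjusted p from 0.605 to 0.880, and their aged means rested on 1 library. Without aged replicate 2 their changes were gone or turned. These 4 genes were listed at 0 in aged replicates 1 and 3, so this outcome was fixed in advance and is a description. Ier3 and Jun were then at no more than 1 and 3 reads in any library. Ier3 went from 1.64 to -0.02 and Ier2 from 0.23 to -0.42 (adjusted p = 0.832 and 0.603), Jun went from 0.47 to 0, and Junb was listed at 0 in all 8 libraries left. In the comparison of NMN with aged oocytes, Ier3 went from -1.64 to 0.02, Ier2 from -0.50 to 0.15 and Jun from -0.42 to 0.04 (limma adjusted p from 0.604 to 0.872 without that library).

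The cumulus and granulosa markers moved with them. Of 24 listed markers in the table (30 had been chosen), 18 were highest in aged replicate 2, beside 24.8% of all genes. Listed at 0 in every other library were 8, a count for which no share over all genes was taken. Among these, Inhbb, Foxl2 and Btc were at only 0.0433, 0.0943 and 0.109 FPKM in aged replicate 2, where 3 reads of a 2 kb transcript would give 0.0921 FPKM. Above 1 FPKM and over 2 times every other library were 7, beside 3.06% of all genes. Grem1 was at 8.40, Ptx3 at 6.37, Hsd3b1 at 4.70, Inhba at 3.97, Inha at 3.17, Fst at 2.31 and Tnfaip6 at 1.08 FPKM in aged replicate 2. Ptx3 and Tnfaip6 are proteins of the expanding cumulus matrix, Grem1 is a cumulus antagonist of BMP signals, and Inha and Inhba encode inhibin and activin subunits of granulosa cells. The list summed to 8.89 to 11.6 FPKM in the young and 6.94 to 8.83 FPKM in the NMN libraries, and to 9.40, 40.6 and 6.80 FPKM in aged replicates 1 to 3. Cd44, Lhcgr and Npr2 were listed at 0 in aged replicate 2, and Cyp19a1, Nr5a2 and Kitl were above 0 in every library. Cyp19a1, the aromatase of granulosa cells, was lowest in aged replicate 2, at 3.03 FPKM against 3.05 to 6.21 FPKM elsewhere, and Kitl was 0.35 times its mean in aged replicates 1 and 3. The part of these cells in the values of Ier3, Ier2, Junb and Jun was not tested. In bulk samples a difference in the number of cells of a type and one in RNA per cell cannot be told apart.

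Markers of other cell types set aged replicate 2 less apart. Theca and stroma genes summed to 0.781 FPKM in it against 0.491 to 1.5 in the other 8 libraries, endothelial genes to 10.6 against 6.997 to 12.9, and blood and immune genes to 1.45 against 0.382 to 2.52 FPKM, with Ptprc, Col1a1, Col3a1 and Pdgfra at 0. Oviduct genes summed to 2.51 against 0.722 to 2.19 FPKM, with Krt18, Foxj1 and Pax8 at 0. The oocyte list itself was also highest in aged replicate 2.

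**Figure D3:**
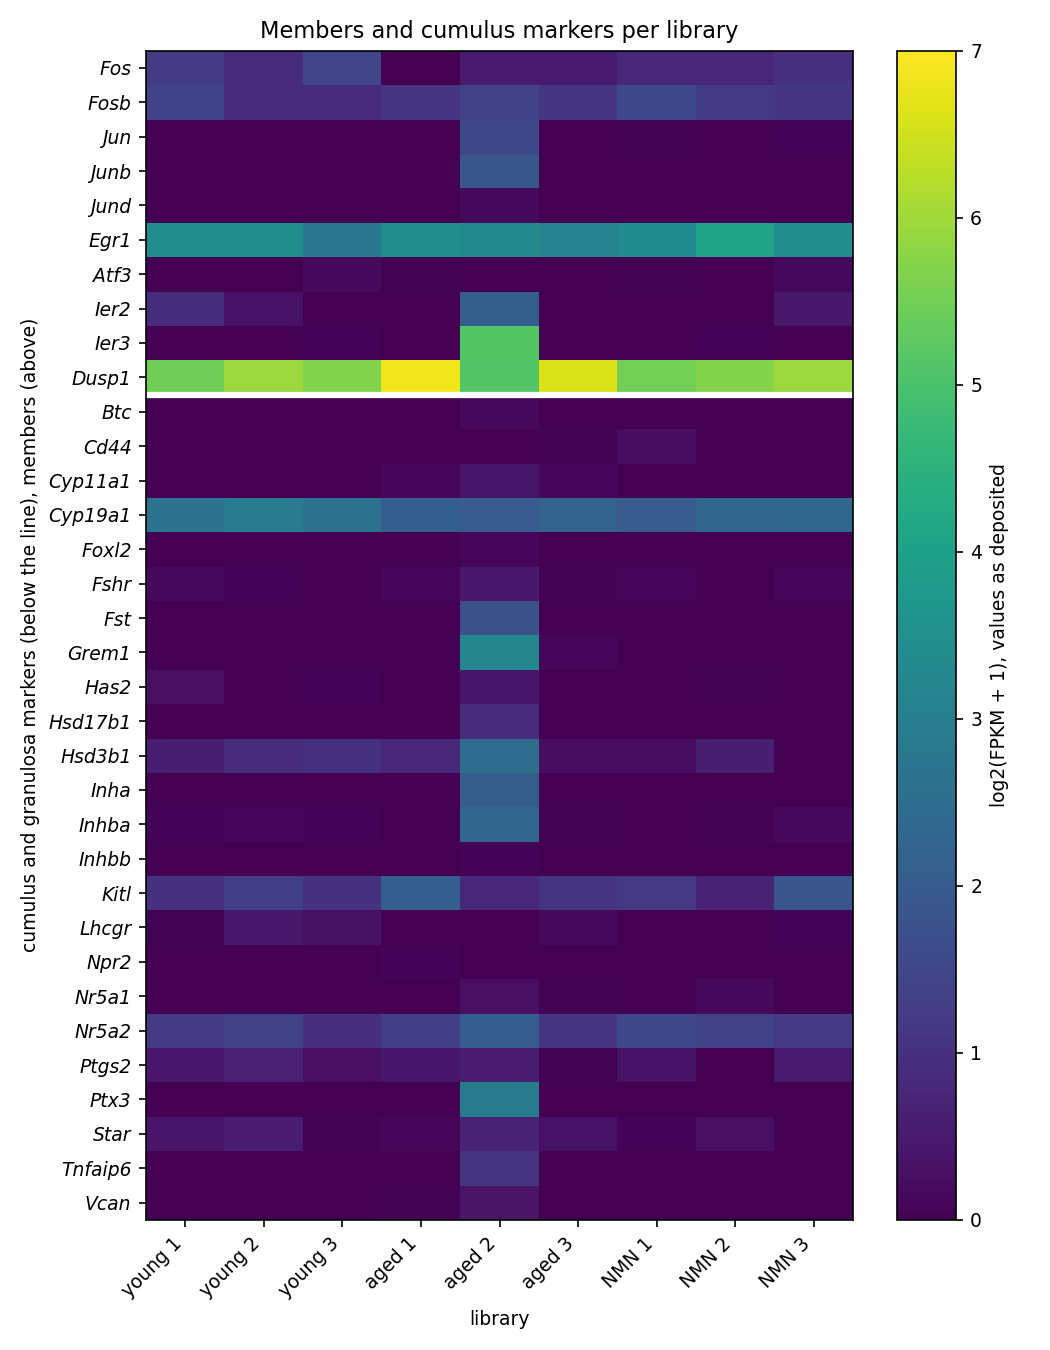
Heat map of log2(FPKM + 1) with values as deposited, for the 10 members (above the white line) and the 24 cumulus and granulosa markers of the table (below it), in the 9 libraries (columns). Ier3, Junb, Ier2 and Jun are brighter in the column of aged replicate 2 than in the other columns. The same holds for Grem1, Ptx3, Inhba, Inha and Fst, while Egr1 and Dusp1 are above 0 in all columns.

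Other immediate early genes gave no call. Of 52 in the list, 47 were in the table and 23 passed the filter, and 0 rose or fell in any of the 3 comparisons (limma), with 6 (aged against young), 5 (NMN to aged) and 5 (NMN to young) at an unadjusted p under 0.05. At that unadjusted threshold the shares of all tested genes were 18.3%, 11.3% and 8.12% in the same order. The list's median log2 change was 0.16 in aged against young, 0.22 in NMN against aged and 0.30 in NMN against young. Over all tested genes it was -0.05, 0.02 and -0.001. Gadd45b, a stress sensor that acts on MAP kinase kinases, was at 0.414 to 1.11 FPKM in the young, 2.27 to 3.56 in the aged and 2.56 to 3.52 in the NMN libraries (log2 change 0.99 ± 0.24 in aged against young, adjusted p = 0.0694). Klf10, a TGF-beta-induced repressor, was at 4.85 to 9.48, 1.88 to 3.47 and 6.33 to 8.44 FPKM in the same groups (-0.97 ± 0.29, adjusted p = 0.123). The clock gene Per1 and the GTPase Arl4d had log2 changes of 0.51 and -0.54 (adjusted p = 0.166 and 0.235). In aged replicate 2, 18 of the 47 genes had their highest value, beside 5 of the 10 members and 24.8% of all genes, and Egr3 and Ier5 were listed at 0 in every other library. Of the 47, 1 gene, Sgk1, a kinase induced by serum and glucocorticoids, was above 1 FPKM and over 2 times every other library there, at 3.14 FPKM. Myc, chosen after its values were seen, was at 0.84 FPKM there and at no more than 0.022 FPKM elsewhere.

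Among the kinases and factors that act upstream of immediate early genes, 1 of 19 tested genes was called in aged against young, where 2.18% of all 9174 tested genes were. In the NMN comparisons 0 were called. At an unadjusted p under 0.05 (limma) were 5 (aged against young), 4 (NMN to aged) and 0 (NMN to young), beside 18.3%, 11.3% and 8.12% of all tested genes. Map3k5, the kinase ASK1 that relays oxidative stress to JNK and p38, was at 5.68, 4.92 and 3.97 FPKM in the young libraries. It was at 8.81, 12.1 and 8.44 FPKM in the aged and at 6.27, 5.28 and 5.44 FPKM in the NMN libraries. The aged libraries lay above all others, and Map3k5 rose by 0.82 ± 0.18 on the log2 scale in aged against young oocytes (limma adjusted p = 0.0474). The call ended in 15 of 16 other settings that could test it, with adjusted p up to 0.213, without young replicate 3, and the change kept its direction in all 16. In NMN against aged the log2 change was -0.67 ± 0.18 (adjusted p = 0.186). Mapk3, the kinase ERK1, chosen after its values were seen, was at 36.8 to 73.0 FPKM in the young and 83.8, 231 and 118 FPKM in the aged libraries (log2 change 1.23 ± 0.32, adjusted p = 0.0763). The list's median was 0.03 in aged against young, beside -0.05 over all tested genes. Over all 7 related lists Map3k5 was the 1 gene called, and with libraries weighted by their quality 12 of 106 passed for aged against young and 2 of 106 between NMN and aged. Of all 9174 genes 904 and 163 were called with those weights, a share near that of the lists. Without aged replicate 2, 0 genes of the lists were called in aged against young by limma, and Map3k5 had an adjusted p = 0.0820.

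The other dual-specificity phosphatases had 7 tested genes and 0 calls in the 3 comparisons (limma), with 1, 0 and 1 at an unadjusted p under 0.05. Dusp7, at 188 to 544 FPKM, and Dusp14, at 149 to 224 FPKM, were above Dusp1 in every library. Dusp10, which acts on JNK and p38, was at 7.96 to 12.5 FPKM in the young and 18.5 to 27.3 in the aged libraries (log2 change 0.93 ± 0.25, adjusted p = 0.0978), and unlike Dusp1 it was not lowest in aged replicate 2, at 21.1 FPKM. Dusp16, Dusp19 and Dusp18 had log2 changes of 0.39, 0.22 and -0.14 (adjusted p from 0.301 to 0.790).

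Stress response genes outside the members had no call either. The heat shock list had 12 tested genes, and 0 were called, with 2, 2 and 0 at an unadjusted p under 0.05. Hspb1, a small heat shock protein, was at 23.6 to 31.2 FPKM in the young, 88.6, 119 and 44.9 in the aged and 22.2 to 49.6 FPKM in the NMN libraries (log2 change 1.48 ± 0.34 in aged against young, adjusted p = 0.0557). The chaperone Hspa8 was at 4.47 to 6.52 FPKM in the young and 10.02 to 11.3 in the aged libraries (0.81 ± 0.20, adjusted p = 0.0749), a value that reads of its near-identical pseudogenes make uncertain, and Hspd1 and Hsf1 had log2 changes of -0.35 and 0.37 (adjusted p = 0.314 and 0.342). The integrated and ER stress list had 21 tested genes and 0 calls, with 1, 1 and 2 at an unadjusted p under 0.05. Eif2s1, the translation factor whose phosphorylation starts that response, had a log2 change of -0.60 ± 0.18 (adjusted p = 0.132), and Slc7a11, Ddit4 and Sdf2l1 had -0.50, 0.49 and 0.27 (adjusted p from 0.326 to 0.453). Nupr1, a stress-induced chromatin protein below the filter, was at 25.1 FPKM in aged replicate 2, at 0.0459 FPKM in aged replicate 1 and at 0 elsewhere, and Xbp1 was at 1.27 against at most 0.0708 FPKM.

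AP-1 partners and ATF/CREB factors had 10 tested genes and 0 calls, with 0, 1 and 0 at an unadjusted p under 0.05. Mafg, Ddit3, Atf2 and Cebpg had log2 changes of -0.40, 0.38, -0.30 and -0.32 in aged against young (limma adjusted p from 0.310 to 0.595). Genes of transcript decay and of Jun and Fos turnover had 14 tested genes and 0 calls, with 1 at an unadjusted p under 0.05 in each comparison. Det1, part of the ubiquitin ligase that degrades Jun, was at 5.40 FPKM in aged replicate 2 and at 0.532 to 1.67 FPKM elsewhere, and its log2 change was 0.88 ± 0.34 (adjusted p = 0.206). Cop1, of the same ligase, the decapping factor Dcp1a and the RNA-binding protein Elavl1 had -0.43, -0.31 and -0.30 (adjusted p from 0.329 to 0.656).

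**Figure D4:**
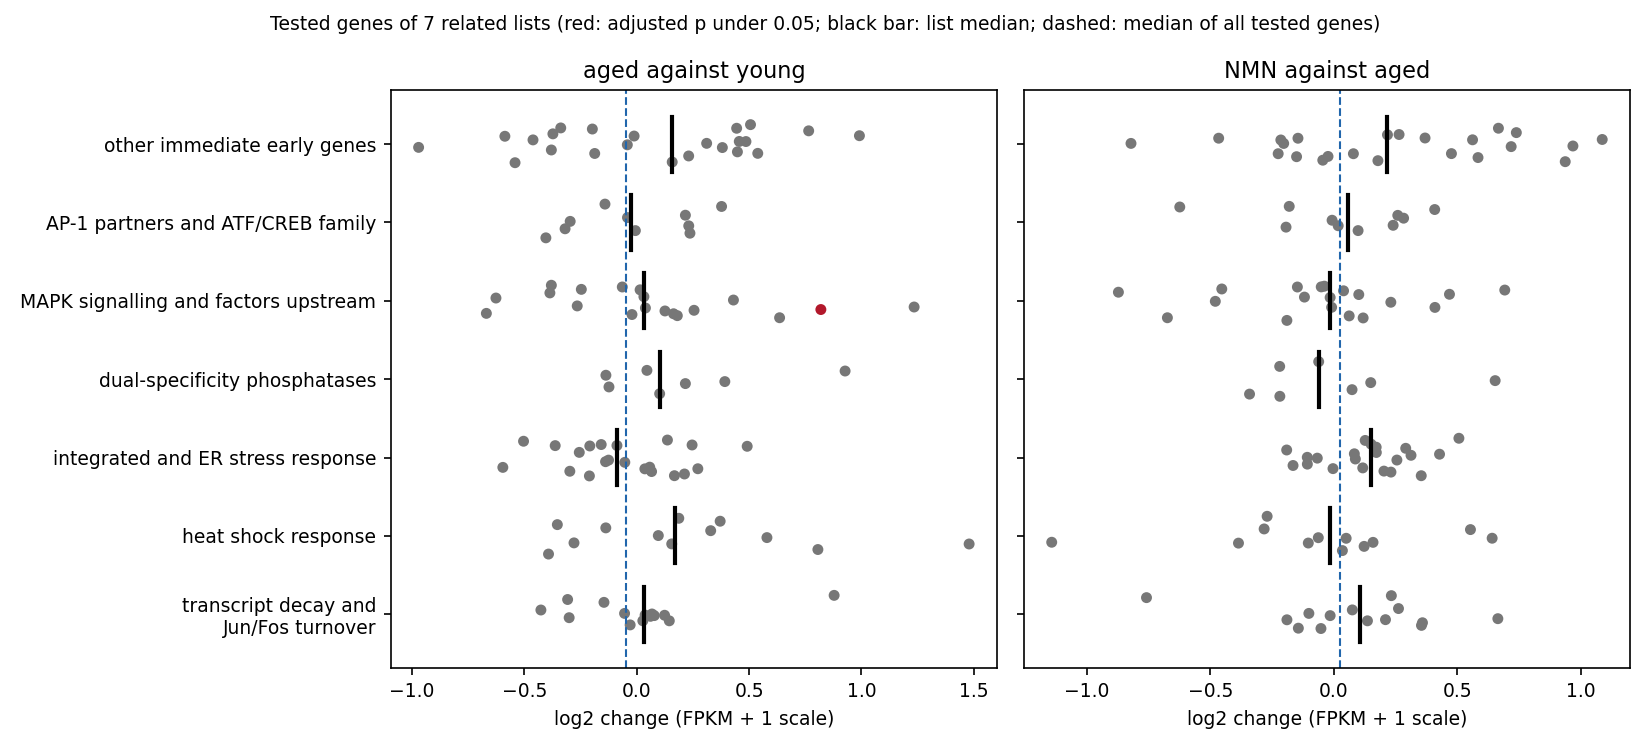
Log2 change on the FPKM + 1 scale (horizontal axis) of the tested genes of the 7 related lists, in aged against young (left) and NMN against aged (right). Each point is a gene, red marks an adjusted p under 0.05, black bars are list medians and the dashed line is the median of all tested genes; Map3k5, at 0.82 in aged against young, is the 1 red point.

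The genes closest to the members' mean across libraries were high in aged replicate 2, where that mean itself was highest. On the log2 scale the mean was 2.012 there and at most 1.249 (young replicate 1) elsewhere. Genes high in that library were thus favoured in advance. The members were not alike. Correlations with Junb were 0.878 or more for Jun, Jund, Ier2 and Ier3 and 0.162 for Fosb. They were -0.211, -0.244, -0.287 and -0.563 for Egr1, Atf3, Fos and Dusp1. Over the 9 libraries, scaled together, the mean log2 value of the members correlated best with Ncln, Pcbd2, Rps6, Fth1, Ngrn, Akr1cl, Vti1b, Tfam, Tpi1 and Prdx2 (Pearson's r from 0.942 to 0.964 over 9 libraries, as a description). Fth1, the ferritin heavy chain, was at 371 FPKM in aged replicate 2 and at 18.8 to 35.01 FPKM in the others, and Rps6, a ribosomal protein, at 17.4 against 2.18 to 3.53 FPKM. Both genes have near-identical pseudogene copies, so their values are uncertain. Over the 8 libraries without aged replicate 2 the 10 best were Gid8, Tbc1d2b, St6galnac3, Tjap1, Ncln, Bcl9, Inpp5a, Abhd12, Trim26 and Ccdc68 (r from 0.850 to 0.916). Ncln was the 1 gene in both sets, so the likeness to the mean over 9 libraries rests on aged replicate 2. It is not a likeness to the members as a set.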

How the data were processed

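Metaphase II oocytes of 3 groups were profiled with 3 libraries each. Per the labels' protocols, libraries were made by Smart-seq2, which primes on poly(A) and amplifies full-length cDNA, so PCR copies are not independent molecules. The authors deposited FPKM for 22526 genes, in a table named as raw counts. Bowtie2 2.2.5, RSEM and build mm9 are named, with no role, per the submitters' processing notes. The annotation is not given in the sources used here. Gene symbols came from GENCODE for 22487 identifiers, and promoter sequences from RefSeq on GRCm38.p6, another build, matched by symbol.

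Reads were estimated from transcripts of over 1500 nt with 1 annotated form, where 96.6 to 97.7% of values below 20 reads were whole within 0.02 reads. Libraries were scaled by a trimmed mean of log ratios. It left out 30% of genes at each end of ratio and 5% at each end of level. Values were then filtered at 1 FPKM in 3 libraries. They were tested as log2(FPKM + 1) with limma 3.58.1 in R 4.3.3, in 1 robust, trended fit of 9 libraries. P-values were Benjamini-Hochberg adjusted over all 9174 tested genes, and adjusted p under 0.05 made a call. The script was tested on simulated data. Replicate numbers are shared between groups. Deviations from group means had correlations of 0.497, 0.119 and 0.142 in the same-numbered pairs of the NMN and young groups. Libraries with different numbers were not compared, so whether the numbers pair these was not tested. The fits printed have no block, which is an alternative. Between aged and young the correlations were -0.339, -0.266 and 0.313. Between the NMN group and the aged group they were -0.370, -0.360 and 0.198.

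All 10 members were named whatever their values, with list genes that passed, else up to 4 of smallest p in aged against young, and the 10 named genes closest to the members' mean. Genes singled out for aged replicate 2 were chosen after their values were seen. Members and lists were chosen with earlier results of these data known. Alternatives were other scalings, pseudocount and filters, fewer samples, a replicate block and library weights. Fitting without both the filter and aged replicate 2 was added after seeing the data.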

Additional observations from a re-analysis of the deposited data

How the results depend on the processing

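The count of members called was 0 in all 3 comparisons with values as deposited, quantile normalization, a pseudocount of 0.1, no filter, a minimum of 10 FPKM, only the 2 groups compared, library quality weights, and the replicate block, which gave 0 in each and ended or made no member call. Leaving out each library in turn gave 0 to 1 in aged against young, the 1 being Dusp1 without aged replicate 2, and 0 in the other comparisons. With no filter and without that library it was 0. With library quality weights Dusp1 had a log2 change of 0.82 in aged against young (limma adjusted p = 0.0502). The number of members highest in aged replicate 2 was 5 under both scalings and as deposited. Among members that passed the filter, signs turned for changes near 0. Ier3 and Ier2 in aged against young, and Ier3, Ier2 and Jun in NMN against aged, tested with no filter, turned without aged replicate 2. Their values of 0 in aged replicates 1 and 3 fixed this in advance. In NMN against young, Dusp1 was at 0.019 as deposited and 0.0018 with quantile normalization, and ran from -0.17 to 0.094 over left-out libraries, above 0 without young replicate 2 or NMN replicate 1 (0.090). In aged against young, Egr1 ran from -0.20 (without young replicate 3) to 0.16, below 0 also without aged replicate 1 (-0.098). Fosb ran from -0.023 (without young replicate 2) to 0.24, below 0 also without young replicate 3 (-0.0040). In NMN against aged, Fosb ran from -0.0026 (without NMN replicate 1) to 0.18. The cause was not tested. Over all genes tested, calls in aged against young went from 200 to 31 with no filter, 97 at the higher minimum, 132 with only the groups compared, 73 with the replicate block and 904 with library quality weights, and ranged from 20 to 210 over left-out libraries. In NMN against aged they went from 20 to 9, 3, 6, 15 and 163 in the same order (5 to 26 over left-out libraries). Between NMN and young, where a pairing by number was not tested, they went from 7 to 0, 1, 17, 0 and 72 (1 to 14), and to 3 as deposited. Members at a few reads per library are limited by depth, and 3 libraries a group limit all tests.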
